A study of Mus musculus with 200 samples.

Results

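The 10 genes described here mark endothelial cells, the cells that line blood vessels: Kdr, Flt1, Tek, Tie1, Pecam1, Cdh5, Eng, Esam, Emcn and Egfl7. They were taken by symbol from the 22033 genes in the expression tables of the series, and all 10 are listed there. For each gene, the expression level, its relation with developmental stage and with the mother's genotype, the share of each parental allele and the effect of the gene's own genotype were measured.

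In the embryo, endothelial cells sense vascular endothelial growth factor (VEGF) mainly through the receptor Kdr, whereas Flt1 binds the same ligands and limits the amount that reaches Kdr. Tek is the receptor of the angiopoietins, which act on the growth and stability of vessels, and Tie1 is its partner receptor. Pecam1, Cdh5 (VE-cadherin) and Esam are adhesion molecules at the contacts between endothelial cells, Eng (endoglin) is a co-receptor for ligands of the TGF-β family, Emcn (endomucin) is a sialomucin of the endothelial surface, and Egfl7 is a protein that endothelial cells secrete into their matrix. Pecam1 is also carried by platelets and white blood cells, Esam by megakaryocytes, and Eng and Tek by early blood progenitors.

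The samples were whole mouse embryos at embryonic day 11.5, each profiled by 3SEQ, a form of RNA sequencing that reads the 3′ ends of poly(A)+ RNA. F1 hybrids came from reciprocal crosses of the inbred strains C57BL/6J (B6) and CAST/EiJ (Cast), with the mother written first: 8 B6xCast embryos from litters 3 and 5 and 8 CastxB6 embryos from litters 1 and 2. N2 embryos came from F1 animals, themselves born to B6 mothers and Cast fathers, mated back to B6: 89 genotyped embryos of 17 litters had a B6 mother (B6xF1) and 65 of 12 litters an F1 mother (F1xB6). At each autosomal gene an F1 embryo carries a B6 and a Cast copy, whereas an N2 embryo is either heterozygous or B6/B6; no embryo was treated and no gene was altered on purpose. Somite number, the count of paired body segments and a measure of stage, was recorded for 13 F1 and 147 genotyped N2 embryos. It ran from 48 to 63 in B6xCast, from 41 to 48 in CastxB6, from 42 to 57 in B6xF1 and from 43 to 54 in F1xB6.

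Reads counted on genes ranged from 15703888 to 34110615 in B6xCast, from 15884995 to 38234229 in CastxB6, from 245220 to 5370322 in B6xF1 and from 473072 to 5134607 in F1xB6. Levels are given as RPM, in which the reads of a gene are scaled by the reads on all genes of the library. N2 libraries were sequenced in 14 lanes (A to G on flowcell 1, H to N on flowcell 2), and only lane M held embryos of both kinds of mother, so lane and mother can hardly be told apart. Of 8 trophoblast and decidua genes, which a whole embryo should largely lack, Prl3d1, Prl2c2 and Ctsq had no read in any of the 4 groups, and the summed level of all 8 had group medians from 1.15 to 3.14 RPM and reached 2.99 RPM in B6xCast, 8.86 in CastxB6, 32.5 in B6xF1 and 11.9 in F1xB6. In whole embryos, fewer endothelial cells and less RNA of a gene per endothelial cell cannot be told apart.

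On the mouse build mm9 used for these data, Kdr lies at chr5:76328852-76374483 and Flt1 at chr5:148373180-148537587, both on the minus strand. Tek (chr4:94405980-94541667, plus strand) and Tie1 (chr4:118143796-118162666, minus strand) share chromosome 4, and Eng (chr2:32502115-32538189) and Egfl7 (chr2:26435534-26448640) share chromosome 2, both on its plus strand. Pecam1 lies at chr11:106515531-106611942 on the minus strand. Cdh5 (chr8:106625525-106668402), Esam (chr9:37335663-37345904) and Emcn (chr3:137004031-137095149) are on plus strands. All 10 are therefore autosomal, and their own genotype differed among the N2 embryos.

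Transcription factors of the ETS family, which bind DNA around the letters GGAA, are regulators of many endothelial genes, so the promoter windows of the members were searched for such letters. Windows of 300 bases (250 before and 50 after the start of transcription, RefSeq on GRCm38.p6) were held for 7 members in 9 windows, and none for Pecam1, Cdh5 and Esam. GGAA, on either strand, was in all 9 windows and in 96.0% of the 32544 windows of all genes, so it does not set these genes apart. The longer form CAGGAAG was in 13.3% of all windows and in 3 of the 9, those of Emcn and of 2 of the 3 Egfl7 starts. The form CCGGAAG was in 8.91% of all windows and in none of the 9. TATAAA was in 13.6% of all windows and, among members, in that of Flt1. The GATA-type letters AGATAA were in 11.2% of all windows and in 1 of the 9, that of Tek. The stretches with CAGGAAG, with the TATAAA of Flt1 and with the AGATAA of Tek are shown here because most promoter windows hold none of these letters, with the matched letters, or their reverse complement, in capitals:

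Egfl7, chr2:26580982-26581011, plus strand: tgggagacaaaCAGGAAGgccatctctctg

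Egfl7, chr2:26581023-26581052, plus strand: gctggtctttcCTTCCTGaggtgcagctgg

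Egfl7, chr2:26583773-26583802, plus strand: gagaacacacaCAGGAAGtccggcgggaag

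Emcn, chr3:137340893-137340922, plus strand: aagaagggtctCTTCCTGttcaaatcccat

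Flt1, chr5:147726025-147726054, minus strand: ctggggaaaggtTATAAAtcgcccccgccc

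Tek, chr4:94739309-94739338, plus strand: ccggagcaggagcagaAGATAAgccttgga

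A match is a description of the letters and not evidence that a factor binds there.

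All 10 endothelial genes were detected in each of the 16 F1 embryos, with between 22 reads (the lowest value, for Tek) and 4773 reads (the highest, for Egfl7) per embryo. The 2 crosses were compared to see whether the direction of the cross changed the level. Kdr and Cdh5 were lower in B6xCast than in CastxB6, and no member passed as higher in B6xCast. Each cross consisted of only 2 litters that also differed in stage, so cross, litter and stage cannot be told apart.

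Among the receptors, Kdr ranged from 10.6 to 16.9 RPM in B6xCast litter 3, from 11.3 to 17.3 in litter 5, from 15.8 to 22 in CastxB6 litter 1 and from 11.3 to 19.7 in litter 2. The crosses thus overlapped, with means of 13.3 ± 2.54 RPM (SD, n = 8) in B6xCast and 18.2 ± 3.62 RPM (SD, n = 8) in CastxB6. The log2 difference, B6xCast minus CastxB6, was -0.49 (edgeR quasi-likelihood test, adjusted p = 0.0121). Cdh5, the adhesion molecule of the endothelial junctions, read 20, 16.2 and 16.1 RPM in the 3 embryos of B6xCast litter 3 and 28.8, 18.3, 20.9, 21.9 and 26.3 RPM in the 5 of litter 5. In CastxB6 it read 28, 35.3, 38.3 and 33.6 RPM in litter 1 and 29.2, 32.8, 24.6 and 18.9 RPM in litter 2. Litter 1 of CastxB6, whose embryos had the fewest somites (41 to 43 where recorded), held the highest Cdh5 levels, and litter 3 of B6xCast, with up to 63 somites, the lowest litter mean. The log2 difference between the crosses was -0.55 (edgeR, adjusted p = 0.0150).

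With these, 2 of the 9 members tested passed at an adjusted p under 0.05, against 29% of the 9728 genes tested. Neither passed when somite number was added to the edgeR fit (log2 difference -0.43 for Kdr, adjusted p = 0.243, and -0.10 for Cdh5, adjusted p = 0.796, 2.41% of genes called). That fit kept only the 13 embryos with a recorded number, which ran from 48 to 63 in B6xCast and from 41 to 48 in CastxB6. Stage and cross could therefore hardly be separated in it. With litter as a block, neither gene passed (limma voom, adjusted p = 0.283 and 0.159, 2.33% called). Tek, with a mean of 2.08 ± 0.518 RPM in B6xCast and 2.60 ± 0.800 RPM in CastxB6 (SD, n = 8 each), was under the minimum of 5 RPM in each table and was left out of this and the other level tests.

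**Figure D1:**
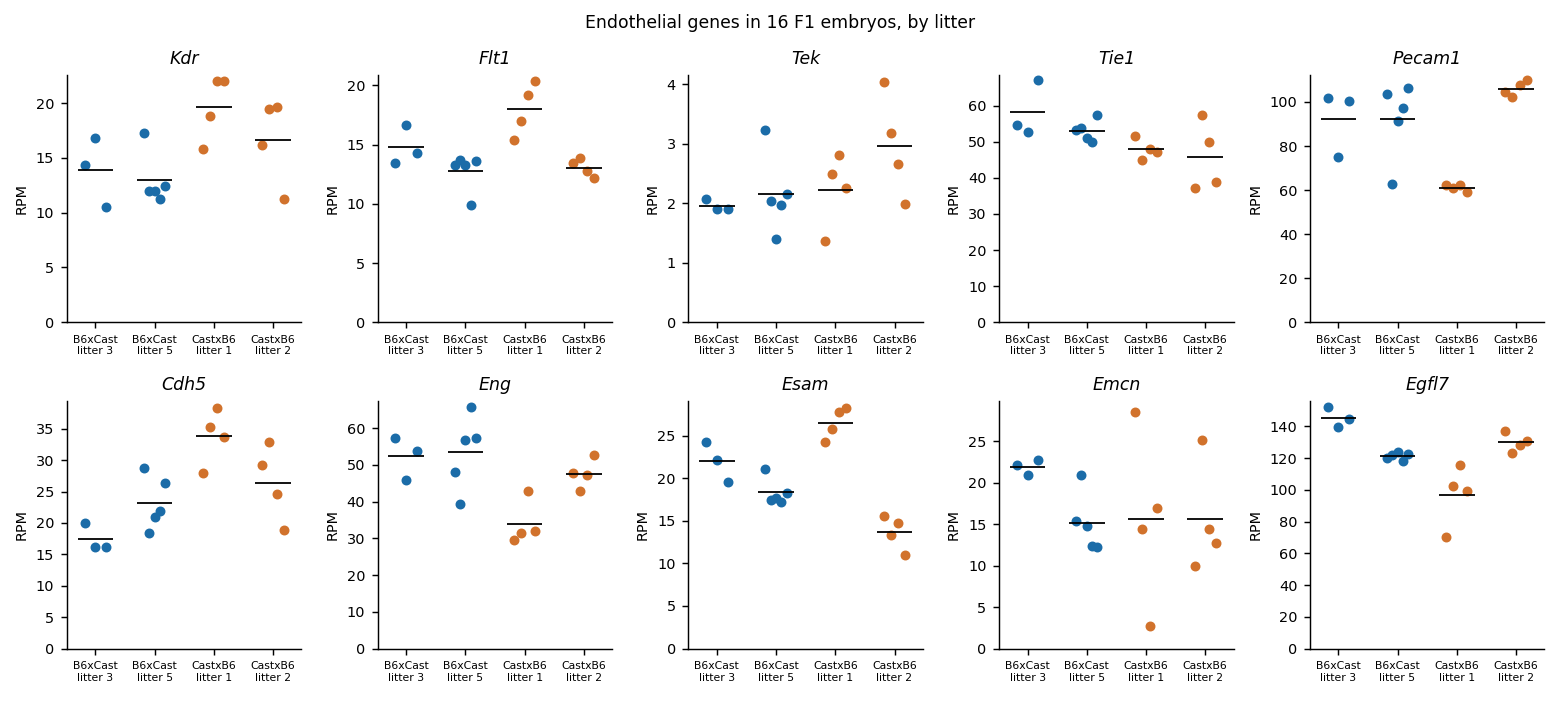
Level (RPM, linear axis from 0) of the 10 endothelial genes in each F1 embryo (points), by cross and litter, with the litter mean as a bar. Pecam1 and Esam split the 2 CastxB6 litters in opposite directions, and 1 embryo of CastxB6 litter 1 stands low for Emcn.

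The 2 CastxB6 litters differed for the adhesion molecules Pecam1 and Esam, as the plot of F1 levels shows. Pecam1 read 62.2, 60.9, 62.4 and 59.2 RPM in CastxB6 litter 1 and 104.4, 102.2, 107.6 and 109.9 RPM in litter 2, with no overlap. Esam went the other way, with 24.2, 25.8, 27.8 and 28.2 RPM in litter 1 and 15.5, 13.3, 14.7 and 11.0 RPM in litter 2, again with no overlap. In B6xCast litters 3 and 5 the means were alike for Pecam1, at 92.4 ± 15.0 and 92.3 ± 17.6 RPM, and closer than in CastxB6 for Esam, at 22 ± 2.39 and 18.3 ± 1.59 RPM (SD, n = 3 and 5). The CastxB6 litters were also sequenced on different pairs of runs, and the part of the run in the difference was not tested. With 4 embryos each, litters are named here after their values were seen and no test is given. Between the crosses Pecam1 differed by 0.11 and Esam by -0.09 on the log2 scale (edgeR, adjusted p = 0.635 and 0.748). When the comparison was confined to the litter of each cross with 46 to 50 somites (an alternative added after seeing the data), Esam was higher in B6xCast by 0.47 (edgeR, adjusted p = 0.0298, 13.3% of genes called), the opposite sign. That comparison held CastxB6 litter 2, the one with the lower Esam levels, and left out litter 1.

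Emcn, the sialomucin, read 28.6, 14.4, 2.70 and 17.0 RPM in the 4 embryos of CastxB6 litter 1. The embryo at 2.70 RPM had 93 reads of the gene, and its Kdr (22 RPM), Cdh5 (38.3 RPM) and Egfl7 (115.4 RPM) were at or near the top of its litter. In CastxB6 litter 2 Emcn read 10.0, 25.2, 14.4 and 12.7 RPM, and in B6xCast it stayed between 12.3 and 22.7 RPM. Emcn was therefore the member with the largest spread in an F1 group, with a coefficient of variation of 52.5% in CastxB6 against 4.94% from read counting.

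Egfl7, the secreted matrix protein, read 152.1, 139.9 and 144.6 RPM in B6xCast litter 3, between 118.3 and 123.7 RPM in litter 5, and 123.0 to 137.4 RPM in CastxB6 litter 2. CastxB6 litter 1 was lower, at 70.2, 102.2, 115.4 and 99.5 RPM, and did not overlap with the other 3 litters. Eng, the TGF-β co-receptor, followed a like order, with 29.6, 31.5, 42.9 and 32.1 RPM in CastxB6 litter 1, 42.8 to 52.8 RPM in litter 2, and 39.4 to 65.7 RPM over both B6xCast litters. Its difference between the crosses was 0.34 on the log2 scale (edgeR, adjusted p = 0.0653), which passed only with library totals in place of TMM scaling (adjusted p = 0.0445, 26.7% of genes called). Flt1 (13.5 ± 1.82 RPM in B6xCast, 15.5 ± 3.06 in CastxB6) and Tie1 (55.0 ± 5.41 and 46.9 ± 6.67 RPM, SD, n = 8 each) did not pass (edgeR, adjusted p = 0.123 and 0.122).

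In the 154 N2 embryos the members were read with far fewer counts: the median embryo had 4 reads of Tek, 12 of Kdr, 13 of Cdh5, 15.5 of Flt1, 18.5 of Emcn, 25 of Esam, 85 of Tie1, 168.5 of Eng, 244.5 of Egfl7 and 267.5 of Pecam1. Tek had no read in 13 embryos, Flt1 in 3, and Kdr and Emcn in 2 each, while the other 6 members were detected in every embryo. Mean levels were 6.74 ± 5.23 RPM for Kdr, 8.32 ± 4.80 for Flt1, 3.71 ± 4.41 for Tek, 37.3 ± 9.57 for Tie1, 123.6 ± 39.1 for Pecam1, 10.2 ± 10.5 for Cdh5, 90.9 ± 63.0 for Eng, 12.5 ± 5.49 for Esam, 13.2 ± 11.4 for Emcn and 122.8 ± 37.4 for Egfl7 (SD, n = 154). F1 and N2 reads were trimmed to different lengths, so the F1 and N2 levels of a gene are given side by side and were not compared.

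Sequencing lanes differed in the level of several members. Lane medians of Emcn ran from 1.72 RPM in lane B to 29.8 RPM in lane M, and the 4 lanes K to N, at 22.4 to 29.8 RPM, were above all other lanes (1.72 to 15.3 RPM). Lane accounted for 76.9% of the variance of the ranks of Emcn and for 71.5% of those of Cdh5, against a median of 59.7% over 10007 genes (95% of genes between 21.5 and 80.3%). Tie1, the partner receptor of Tek, was at the other end, with lane medians between 29.9 and 43.4 RPM and 13.6% of its rank variance between lanes, a share lower than that of all but 0.440% of the genes. For the other members the share was 34.7% (Esam), 39.3% (Flt1), 46.0% (Pecam1), 49.6% (Kdr), 55.3% (Egfl7) and 58.4% (Eng), so 2 of the 9 members tested were above the median of all genes.

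Eng stood apart in lane J, where the 11 embryos, all with B6 mothers and from 4 litters, read from 142.0 to 424.1 RPM with a median of 261.8 RPM. Medians of the other 13 lanes ran from 40.7 to 96.3 RPM. Lane J also held the N2 embryo with the fewest reads (245220) and the 3 embryos without a read of Flt1. Over the N2 embryos the level of Eng fell with the depth of the library (Spearman's rho -0.288). The part of depth in the lane J values was not tested. Within lanes the embryos still differed more than read counting alone gives: the pooled within-lane coefficient of variation was 25.2% for Tie1 (12.6% from counting), 24% for Pecam1 (7.14%), 23.7% for Egfl7 (7.17%), 34.1% for Eng (9.49%), 55.6% for Kdr (32.1%) and 75.8% for Cdh5 (25.3%).

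**Figure D2:**
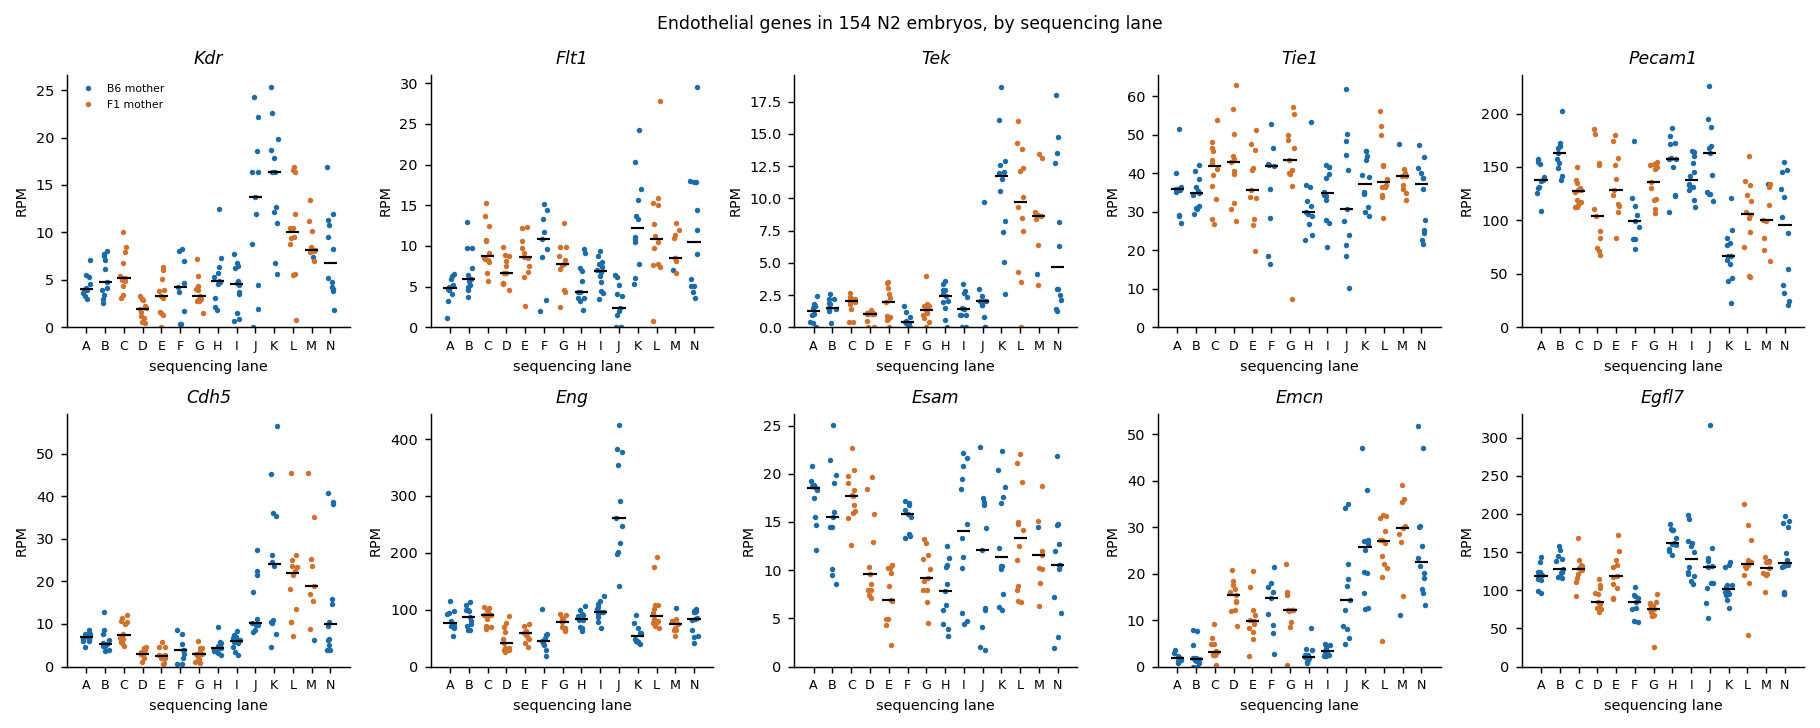
Level (RPM, linear axis from 0) of the 10 endothelial genes in each of 154 N2 embryos by sequencing lane, coloured by the mother (blue B6, orange F1), with lane medians as black bars. Lane J stands high for Eng (median 261.8 RPM) and lanes K to N for Emcn, whereas the lane medians of Tie1 stay between 29.9 and 43.4 RPM.

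Levels were set against somite number to ask whether endothelial transcripts change over the stages sampled. Eng and Pecam1 rose with somite number, and none of the other 7 members tested passed in either direction. With 21 embryos of at most 45 somites, 112 of 46 to 52 and 14 of at least 53, Eng had a lowest, median and highest value of 19.2, 58.9 and 100.8 RPM in the youngest group, 26.4, 79.4 and 383.0 RPM in the middle group and 64.7, 98.7 and 424.1 RPM in the oldest. The mean of Eng was 61.9 ± 23.8, 90.2 ± 56.3 and 148.5 ± 116.7 RPM (SD) in these groups. Pecam1 read 22.8, 108.2 and 174.1 RPM, then 20.9, 124.9 and 226.3 RPM, then 124.1, 144.2 and 194.9 RPM, with means of 106.7 ± 41.3, 123.2 ± 40.3 and 145.8 ± 19.6 RPM (SD). The groups overlapped for both genes, although no embryo of at least 53 somites was below 124.1 RPM for Pecam1.

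Over the 147 embryos, Spearman's rho with somite number was 0.338 for Eng (adjusted p = 0.000483) and 0.226 for Pecam1 (adjusted p = 0.0324), both across 10040 genes. Pearson's r was 0.325 for Eng and 0.257 for Pecam1, and 0.318 and 0.214 after the 2 embryos furthest from the median stage were dropped. Permutation of single embryos gave a two-sided p for r of 3e-05 and 0.00159, and for rho of 6e-05 and 0.00635. It did not keep litters together, although litter accounted for 58.0% of the rank variance of Eng and 58.3% of that of Pecam1. These 2 of 9 members stand beside 21.9% of all genes that passed, 14% rising and 7.92% falling.

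Neither gene passed within lanes. With lane regressed out of the ranks, rho was 0.032 for Eng (adjusted p = 0.865) and 0.117 for Pecam1 (adjusted p = 0.442), and no member passed, while 11.5% of all genes did. In edgeR's quasi-likelihood test Eng rose by 0.10 per somite on the log2 scale (adjusted p = 3.21e-05, 23.7% of genes called) without lane and by 0.02 (adjusted p = 0.538, 9.86% called) with it. Eng was the only member called without lane in that test, and the only one called with TMM-scaled CPM (20.8% of genes) or when embryos without a genotype were added (22.8%). On flowcell 1 alone no member was called (15.5%). On flowcell 2 alone 3 were called (39.2%), with Eng (rho 0.401, adjusted p = 0.00385) and Pecam1 (0.392, adjusted p = 0.00476) rising and Flt1 (-0.305, adjusted p = 0.0257) falling. Over the means of the 29 litters, rho was 0.345 for Eng and 0.276 for Pecam1, neither past the test (adjusted p = 0.472 and 0.525, 1.73% of genes called). Permutation of the litter means gave an unadjusted two-sided p for rho of 0.0667 for Eng and 0.146 for Pecam1, and for r of 0.0705 and 0.112. Without lane J, an alternative added after seeing the data, Eng had a rho of 0.308 (adjusted p = 0.00245) and Pecam1 of 0.211 (adjusted p = 0.0474, 29.8% of genes called). Lanes held litters of different stage, with lane means of somite number between 45.2 and 51.6, so stage and lane overlap, and the part of each in the rise of Eng and Pecam1 was not tested further.

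**Figure D3:**
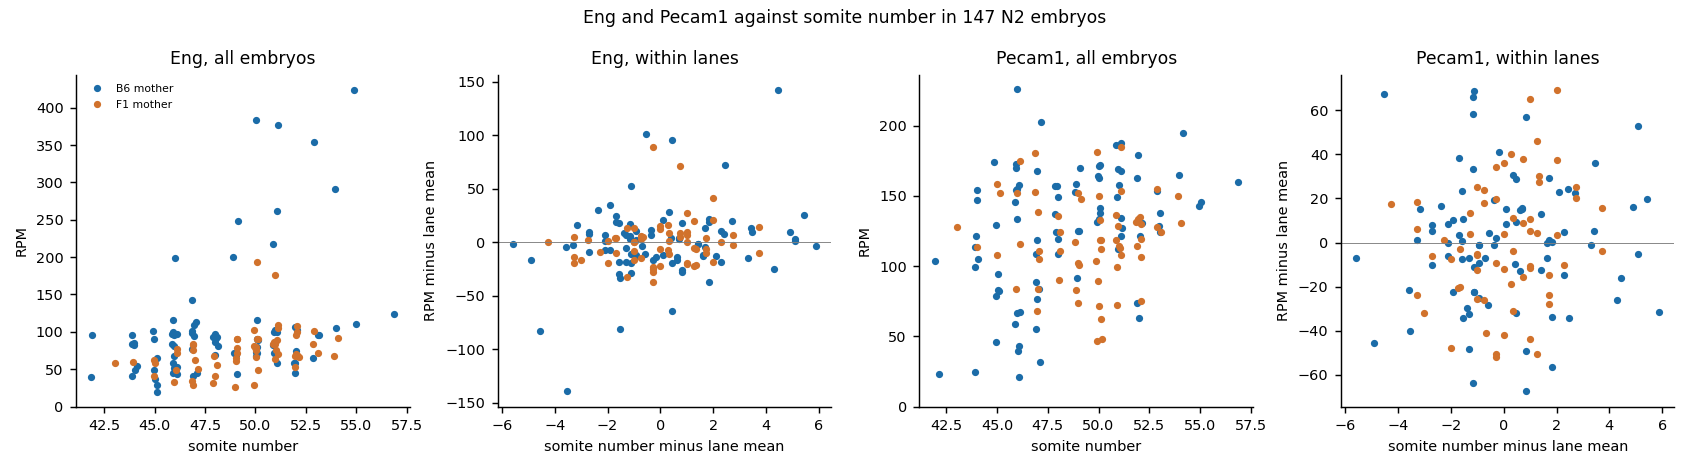
Eng and Pecam1 against somite number in 147 N2 embryos, as RPM (the left panel of each gene) and as deviations from lane means on both axes (the right panel), coloured by the mother (blue B6, orange F1). The Spearman correlation falls from 0.338 to 0.032 for Eng and from 0.226 to 0.117 for Pecam1 once lane is regressed out of the ranks.

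Among the other members, Flt1 had means of 11.5 ± 6.63, 7.95 ± 4.45 and 7.07 ± 3.18 RPM (SD) in the 3 stage groups, with medians of 10.8, 7.40 and 7.41 RPM. Its rho was -0.138 (adjusted p = 0.215, permutation p = 0.0931) and its Pearson's r -0.229 (permutation p = 0.00526). That r was -0.187 after the 2 embryos furthest from the median stage were dropped. Over litter means the r of Flt1 was -0.356 (permutation p = 0.0567). The r of the other 6 over embryos lay between -0.129 and 0.162 (permutation p from 0.0505 to 0.804). Kdr had medians of 5.23, 5.24 and 4.00 RPM (rho -0.003, adjusted p = 0.982) and Tie1 of 41.4, 36.5 and 39.8 RPM (rho 0.000, adjusted p = 1.00). Emcn (rho -0.116), Cdh5 (0.117), Egfl7 (0.140) and Esam (0.159) did not pass either, with adjusted p between 0.147 and 0.312. The sets of embryos by mother gave different members: with B6 mothers alone Eng, Pecam1 and Egfl7 rose and Flt1 and Emcn fell (51.6% of all genes called), and with F1 mothers alone Cdh5, Eng and Esam rose (23.1% of all genes called). A test of whether the slope differs by mother, with lane in the fit (edgeR, added after seeing the data), called no member. The smallest p was that of Tie1 (unadjusted p = 0.0110, adjusted p = 0.707), and 1 of 10040 genes (0.00996%) passed.

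Other lists were read beside the members. Of 20 tested genes of a list of other endothelial genes, 6 rose and 1 fell with somite number (Stab1, rho 0.365, and Cldn5, 0.303, had the smallest p among those that rose, and Ecscr, -0.219, was the one that fell), and with lane regressed out 1 rose (Lyve1, a marker of lymphatic and some other endothelium, rho 0.360) and 1 fell (Ece1, -0.274). Their median rho was 0.048, that of the members 0.117 and that of all genes -0.024. Of 12 tested ligands and co-receptors of the VEGF, angiopoietin, Notch and TGF-β pathways 2 rose, the VEGF family ligand Pgf (rho 0.350) and the apelin receptor Aplnr (0.265), and with lane regressed out none rose and Notch4 fell (-0.264). Of 15 tested endothelial transcription factors 1 rose, Lyl1 (0.359), and with lane regressed out 2 others did, Mef2c (0.274) and Tal1 (0.240). The counts of these lists stand beside 21.9% of all genes that passed without lane and 11.5% with lane regressed out.

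Lists of other cell types moved too: 6 of 6 fetal liver genes rose with somite number both with and without lane, and 4 of 7 blood and 3 of 6 pericyte and smooth muscle genes rose without lane, 2 of each with it. Of all genes 14% rose without lane and 8.46% with it. The summed level of the fetal liver list had a rho of 0.570 with somite number and 0.543 with lane regressed out, against 0.311 and 0.120 for the summed level of the members. The summed blood list, which includes cells that can carry Pecam1, Esam, Eng and Tek, ranged from 167.1 to 675.7 RPM in B6xF1 and from 134.8 to 706.6 RPM in F1xB6, with a rho of 0.290 with somite number. Its part in the rise of Eng and Pecam1 was not tested.

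Levels of the members were next compared between N2 embryos of B6 and of F1 mothers, the comparison for an effect of the mother's genotype. No member passed the study's test (two-sided Mann-Whitney U test, Bonferroni-adjusted p under 0.01), which called 5.03% of 9733 autosomal genes. With Benjamini-Hochberg adjustment 31.6% of all genes and 5 of the 9 members were called. Tie1, Flt1 and Emcn were then higher with an F1 mother, and Eng and Egfl7 lower.

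Tie1 ranged from 10.3 to 62 RPM (median 35.2) with B6 mothers and from 7.43 to 62.9 RPM (median 40.2) with F1 mothers, means of 35.1 ± 9.09 (SD, n = 89) and 40.3 ± 9.45 RPM (SD, n = 65). The log2 difference was 0.20 (Mann-Whitney with Benjamini-Hochberg adjustment, p = 0.00344), and edgeR gave 0.21 (adjusted p = 0.00487). Taken per litter, the means of the 17 litters of B6 mothers ran from 27.3 to 56.1 RPM and those of the 12 litters of F1 mothers from 34.9 to 48.5 RPM, and they did not differ past 0.05 (permutation p = 0.0578, two-sided), while the Mann-Whitney test on them gave an unadjusted p of 0.0124 (adjusted p = 0.263). Limma voom with litter as a block called 0 genes (0%), members included (Tie1 adjusted p = 0.895). Mann-Whitney tests on litter means, with p from the normal approximation, and on lane means could call no gene. With so few litters or lanes, their smallest possible p does not pass the Bonferroni threshold over 9733 genes.

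Eng had means of 102.7 ± 77.4 RPM with B6 mothers and 74.8 ± 28.3 RPM with F1 mothers, a log2 difference of -0.46 (Mann-Whitney with Benjamini-Hochberg adjustment, p = 0.0382). Without lane J, whose 11 embryos all had B6 mothers and included the one with the fewest reads, it was -0.05 (adjusted p = 0.308). Flt1 was also lost without lane J (0.12, adjusted p = 0.0719, against 0.24 and 0.00711 with it), whereas Tie1 (0.19, adjusted p = 0.00361), Emcn (0.47, adjusted p = 0.00579) and Egfl7 (-0.20, adjusted p = 0.0238) were called without it, as were 31.4% of all genes. Lane and mother cannot be told apart for any of these genes. Pecam1, Cdh5, Esam and Kdr did not pass in this test, with medians of 133.3 and 118.8, 6.54 and 5.49, 13.5 and 10.6, and 5.54 and 4.85 RPM for B6 and F1 mothers. Count models called 4 members each, Kdr, Tie1, Eng and Egfl7: Kdr had a log2 difference of -0.42 in edgeR's quasi-likelihood test (adjusted p = 0.0412, 25.4% of genes called) and DESeq2 called 27.9% of genes.

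The share of each allele was read from votes: each read over a SNP that differs between B6 and Cast gives up to 1 vote for an allele, and the B6 allele fraction (BAF) is the share of votes for B6. Over the 16 F1 and the heterozygous N2 embryos, no member passed for allele-specific expression (paired test of B6 against Cast votes, each scaled by the library's reads, Bonferroni-adjusted p under 0.01 and BAF outside 0.45 to 0.55). This compares 0 of the 8 members tested with 18.9% of 9084 genes. At an unadjusted p under 0.05 there were 2 members, Tek and Pecam1 (unadjusted p = 0.0332), against 57.7% of all genes. A gene needed 20 votes or more in B6xCast, CastxB6, B6xF1 and F1xB6 alike, which Flt1 (17.99 votes in F1xB6) and Tie1 (3 and 5 votes in B6xF1 and F1xB6) did not reach.

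Pooled over the F1 embryos, BAF was 0.490 for Kdr (1889 votes, 95% Wilson interval 0.467 to 0.512), 0.494 for Pecam1 (25969 votes, 0.488 to 0.5), 0.497 for Esam (2646 votes, 0.478 to 0.516) and 0.531 for Egfl7 (11435 votes, 0.522 to 0.540). Intervals cover the counting error of the pooled votes only and leave out the spread between embryos. Reads were also not told apart by molecule. These junction, receptor and matrix genes thus had both alleles at nearly equal levels, and the N2 heterozygotes gave 0.521 for Kdr (0.467 to 0.574), 0.489 for Pecam1 (0.481 to 0.496), 0.502 for Esam (0.465 to 0.539) and 0.491 for Egfl7 (0.473 to 0.509). Egfl7 was above 0.5 in 14 of the 16 F1 embryos, and its F1 and N2 intervals did not overlap. Flt1 (0.476), Tie1 (0.488) and Eng (0.447) had F1 intervals that included 0.5, from 340, 563 and 304 votes.

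Tek, the angiopoietin receptor, came nearest to a call. Its BAF was 0.565 in F1 embryos (315 votes, interval 0.510 to 0.619) and 0.663 in N2 heterozygotes (249 votes, 0.602 to 0.719), with an unadjusted p of 7.42e-05 over embryos, 0.674 after Bonferroni adjustment and 0.000238 after Benjamini-Hochberg adjustment, by which 35.7% of all genes passed. It was the only member called in that way. Single F1 embryos ranged from 0.370 to 1, with few votes each.

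The pooled fractions of Cdh5 and Emcn lay apart in F1 embryos and N2 heterozygotes. No test over embryos compared these sets, whose reads were trimmed to different lengths, and single N2 heterozygotes ranged from 0 to 1 for both genes. Cdh5 was below 0.5 in 13 of 16 F1 embryos (0.390 to 0.536), with a pooled BAF of 0.454 (interval 0.441 to 0.467), and at 0.560 (0.526 to 0.593) in N2 heterozygotes, so the intervals did not overlap. Emcn was at 0.639 (0.605 to 0.673) in F1 embryos and at 0.470 (0.391 to 0.554) in N2 heterozygotes. The F1 embryos alone gave Cdh5 an unadjusted p of 0.000151 and Emcn one of 0.00284, both 1 after Bonferroni adjustment.

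The 2 flowcells were then set side by side for the heterozygous N2 embryos, a comparison added after these fractions were seen. Emcn had a BAF of 0.653 on flowcell 1 (80.66 votes, Wilson interval 0.546 to 0.749) and of 0.220 on flowcell 2 (59 votes, 0.134 to 0.341), a difference of -0.433 (quasi-binomial test over embryos, adjusted p = 0.00168 over all genes). Over the pooled votes B6 was thus the more frequent allele on flowcell 1 and Cast on flowcell 2, in 23 and 27 embryos with a vote, none of which had more than 20 votes on flowcell 1 or 4 on flowcell 2. Lane F alone gave 47 of the votes of flowcell 1 at a BAF of 0.681, whereas the 15 votes of lane K were all for Cast. Lane I of flowcell 2 lay on the B6 side (0.875 from 8 votes), and flowcell 2 without it stood at 0.118. Leaving out single lanes otherwise gave 0.614 to 0.679 on flowcell 1 and 0.208 to 0.295 on flowcell 2. Cdh5 had a BAF of 0.679 (233.96 votes, 0.617 to 0.736) on flowcell 1 and of 0.514 (609.46 votes, 0.474 to 0.553) on flowcell 2, a difference of -0.166 (quasi-binomial test, adjusted p = 0.00337).

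With these, 2 of the 8 members tested differed between flowcells, against 7.86% of 8705 genes. Tek stood at 0.800 (45 votes) and 0.632 (204 votes), on the B6 side on both (adjusted p = 0.282). Kdr, Flt1, Pecam1, Esam and Egfl7 differed by at most 0.0561 in either direction (adjusted p from 0.515 to 0.895), and Eng and Tie1 had too few votes. The levels of both genes that differed were also unlike on the 2 flowcells, with medians of 7.94 and 18.9 RPM for Emcn and of 4.54 and 10.1 RPM for Cdh5. Lanes H and I of flowcell 2 were unlike its other lanes, with medians of 2.15 and 3.28 RPM for Emcn and 4.30 and 5.91 RPM for Cdh5. These lay within the range of the lane medians of flowcell 1, and lane H gave 0 votes of Emcn in heterozygotes. Whether the allele fractions go with the flowcell or with groups of lanes was not tested. Votes came from few of the reads of Emcn, with 47.7 votes per 1000 of its reads in N2 embryos and lane values from 11.4 (lane E) to 140.6 (lane C), against 100.1 in F1 embryos. Cdh5 gave 721.8 votes per 1000 reads in N2 embryos and 509.4 in F1 embryos. In embryos called B6/B6, 1 of 60 votes of Emcn (1.67%) and 0.473% of those of Cdh5 were for Cast. The genotypes were themselves called from votes smoothed along chromosomes, so these shares are no independent check on the votes. Which reads and SNPs lie behind the votes of each flowcell was not tested.

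**Figure D4:**
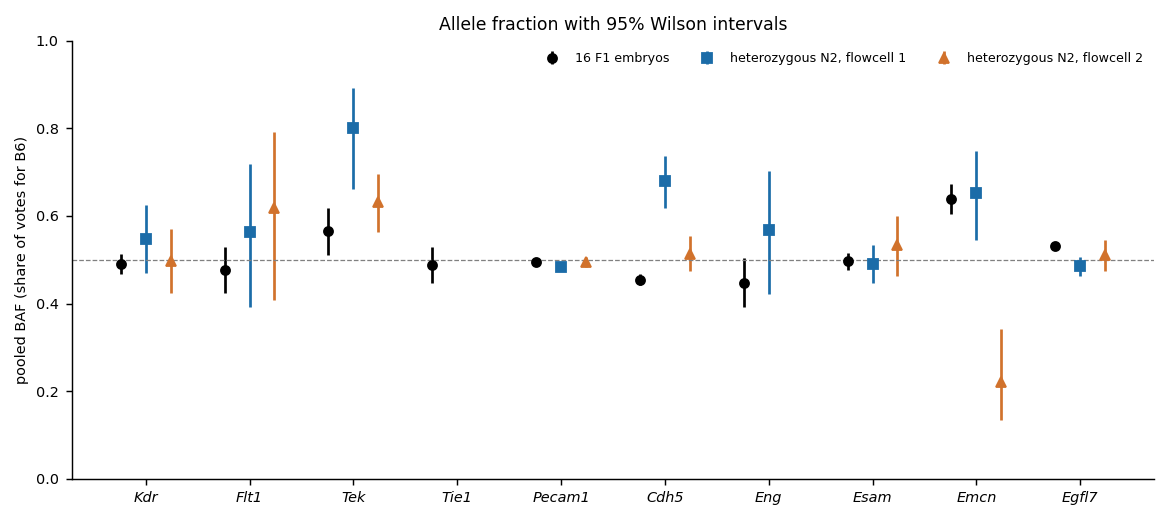
Pooled BAF (share of votes for B6, axis from 0 to 1) of the 10 endothelial genes in 16 F1 embryos (black), in heterozygous N2 embryos on flowcell 1 (blue) and on flowcell 2 (orange), with 95% Wilson intervals as bars and a dashed line at 0.5; points resting on fewer than 20 votes are left out. Emcn lies at 0.639 in F1 embryos, 0.653 on flowcell 1 and 0.220 on flowcell 2, and Cdh5 at 0.454, 0.679 and 0.514, whereas Pecam1 stays between 0.484 and 0.495.

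Reciprocal crosses tell a bias by parent from a bias by strain, since an allele expressed by its parental origin changes sides with the cross. None of the 10 members passed for such a change, against 0.405% of 11598 genes (binomial tests in each F1 cross, Bonferroni-adjusted p under 0.01 with opposite alleles higher). The pooled BAF of Tie1 (0.452 in B6xCast, 0.512 in CastxB6) and of Esam (0.486 and 0.504) lay on either side of 0.5 without passing. Cdh5 had 0.452 of its votes for B6 in B6xCast and 0.455 in CastxB6, so the Cast allele was the more frequent one from either parent. Emcn had the widest gap, at 0.575 in B6xCast and 0.674 in CastxB6, a difference of -0.0997 with B6 higher in both. In the quasi-binomial test over embryos this gave an unadjusted p of 0.0370 and an adjusted p of 0.432. That test called none of the members and 1.04% of all genes, with 10.5% of genes and 1 member at an unadjusted p under 0.05. Heterozygous N2 embryos gave 0 of the 8 members tested (0.358% of genes).

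Only Pecam1 and Egfl7 had enough heterozygous N2 embryos with at least 20 votes to set BAF against somite number. Over 72 embryos, Pecam1 gave rho = -0.064 and r = -0.058 (permutation p of 0.594 and 0.631, two-sided, adjusted p for rho = 0.928), with r = -0.041 once the 2 embryos of most extreme stage were dropped. Egfl7, over 50 embryos, gave rho = 0.211 and r = 0.180 (permutation p of 0.141 and 0.210, adjusted p for rho = 0.723), with r = 0.245 once its 2 such embryos were dropped. Neither member passed at an adjusted p under 0.1, which 0.299% of the 3342 genes tested did, and 8.89% of genes but neither member had an unadjusted p under 0.05. With 10 votes per embryo Cdh5 (24 embryos, rho 0.191) and Esam (29 embryos, rho 0.113) could be added, and neither passed (0.37% of genes called).

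The level of each member was next compared between N2 embryos heterozygous at the gene itself and those with 2 B6 copies, which asks whether a Cast copy goes with a different level. No member passed (rank-sum test on log2(RPM + 1) with lane, sex, somite number and 15 principal components regressed out, Benjamini-Hochberg adjusted p under 0.01), against 29.2% of 9733 genes, and 2 members, Tie1 and Flt1, had an unadjusted p under 0.05, which 44.9% of all genes had. Tie1 had the smallest p. In heterozygotes its lowest, median and highest values were 18.4, 39.6 and 62.9 RPM (mean 39.6 ± 9.08, SD, n = 77), and in B6/B6 embryos they were 7.43, 36.3 and 62 RPM (mean 35 ± 9.55, SD, n = 77). The distributions overlapped over nearly their whole range, and the adjusted difference was 0.11 on the log2 scale (unadjusted p = 0.00294, adjusted p = 0.0101). It depended on the number of principal components: the adjusted p was 0.0413 with none, 0.122 with 5 and 0.241 with 30, with differences of 0.18, 0.11 and 0.06.

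Embryos of F1 mothers alone gave Tie1 a difference of 0.19 (adjusted p = 0.00378, 14.1% of genes called), and those of B6 mothers alone gave 0.02 (adjusted p = 0.940, 18.8% called). Whether the effect of the Tie1 genotype differs between mothers was not tested. With edgeR, adjusted over all genes tested against the Tie1 genotype, it was 0.18 (adjusted p = 0.200). The pooled BAF of Tie1 was 0.490, from 563 votes in F1 embryos and 8 in N2 heterozygotes.

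None of the other members came near the threshold. Flt1 had means of 7.93 ± 4.36 RPM in 77 heterozygotes and 8.71 ± 5.21 RPM in 77 B6/B6 embryos (adjusted difference -0.13, adjusted p = 0.0945), and Eng 95.6 ± 75.5 and 86.6 ± 49.3 RPM in 73 and 81 embryos (0.05, adjusted p = 0.117). Kdr (-0.14), Egfl7 (-0.04), Emcn (-0.07), Cdh5 (-0.06), Pecam1 (0.01) and Esam (-0.01) had adjusted p between 0.163 and 0.929.

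Some genes of the other lists were called in the same tests. For own genotype 3 of 20 tested genes of the list of other endothelial genes were higher in heterozygotes and 2 lower, a share near the 29.2% of all genes. They included the C-type lectin Clec14a, higher by 0.64 on the log2 scale (adjusted p = 5.25e-10), the adhesion molecule Icam2, lower by -0.18 (adjusted p = 7.01e-08), Eltd1, 0.29, and Cd34, -0.19. For allele-specific expression 1 of 20 was higher from B6 and 2 higher from Cast, a share near the 18.9% of all genes: Icam2 (BAF minus 0.5 of 0.0709), Clec14a (-0.298) and Robo4 (-0.0889). The 2 genes called by both measures, Clec14a and Icam2, had the same higher allele in each. Among the ligands and co-receptors, Notch4 was higher in heterozygotes (0.16) and Vegfb lower (-0.10), out of 13 tested, with none of 7 called for allele-specific expression. Among the transcription factors Ets1 was higher (0.46) and Foxo1 (-0.21) and Elk3 (-0.13) lower, out of 15, with none of 11 called for allele-specific expression.

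In the comparison of mothers, Ecscr was higher with an F1 mother (log2 difference 0.52, Bonferroni-adjusted p = 0.00372) out of 20 other endothelial genes. Vegfb was also higher (0.46, adjusted p = 0.000114) out of 13 ligands and co-receptors, and none of the 15 transcription factors passed. These counts stand beside 5.03% of all genes that passed. Between the F1 crosses, 3 of the other endothelial genes were higher in B6xCast (Lyve1, 1.09, Stab1, 0.47, and Icam2, 0.34) and 2 lower (Mmrn2, -0.63, and Ramp2, -0.22), all in log2 and again near the share of all genes, 29%. Of the ligands and co-receptors, the Notch1 receptor (-0.46) and Aplnr (-0.33) were lower in B6xCast and none higher, and of 14 transcription factors 3 were higher and 3 lower, Hey1 (-0.83) and Ets1 (-0.86) among the latter. Lists of other cells moved with the crosses as well: 5 of 6 fetal liver genes (Alb, 1.59), 5 of 7 blood genes (Runx1, 0.74) and 2 of 6 pericyte genes were higher in B6xCast, the cross with more somites, and none of these lists had a lower gene. Of 7 erythroid genes 3 were higher and Hbb-bh1, an embryonic globin, was lower by -1.67. Their part in the differences of Kdr and Cdh5 was not tested.

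Coexpression was read over the 154 N2 embryos as Spearman's rho between the ranks of 2 genes with lane regressed out. Genes of an embryo share its library, and most members had few reads, so the values describe these libraries. The 9 members tested did not move as a block. Of their 36 pairs, 12 passed (33.3%, adjusted p under 0.05), 7 of them positive and 5 negative, against 38.3% of 89982 pairs of a member and a gene that is no member. The median rho was 0.061 over member pairs and 0.059 over the other pairs.

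The strongest pair was Pecam1 with Eng (rho 0.474, Pearson's r 0.382, 0.392 once the 2 most extreme Pecam1 values were dropped), the same 2 genes that rose with somite number. Its rho was 0.506 with B6 mothers, 0.444 with F1 mothers, and 0.470 with somite number regressed out as well. Around Flt1 and Kdr a further set was positive: Flt1 with Emcn (0.364), Kdr with Tie1 (0.360), Flt1 with Cdh5 (0.319), Cdh5 with Emcn (0.309), Kdr with Flt1 (0.287) and Flt1 with Tie1 (0.207). The 5 negative pairs that passed each held Pecam1 or Eng: Flt1 with Pecam1 (-0.282), Eng with Esam (-0.281), Eng with Emcn (-0.243), Pecam1 with Cdh5 (-0.206) and Pecam1 with Emcn (-0.204). Other pairs of Pecam1 or Eng with these receptors did not pass, such as Kdr with Eng (-0.188), Kdr with Pecam1 (-0.115), Tie1 with Eng (-0.006) and Tie1 with Pecam1 (0.082).

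**Figure D5:**
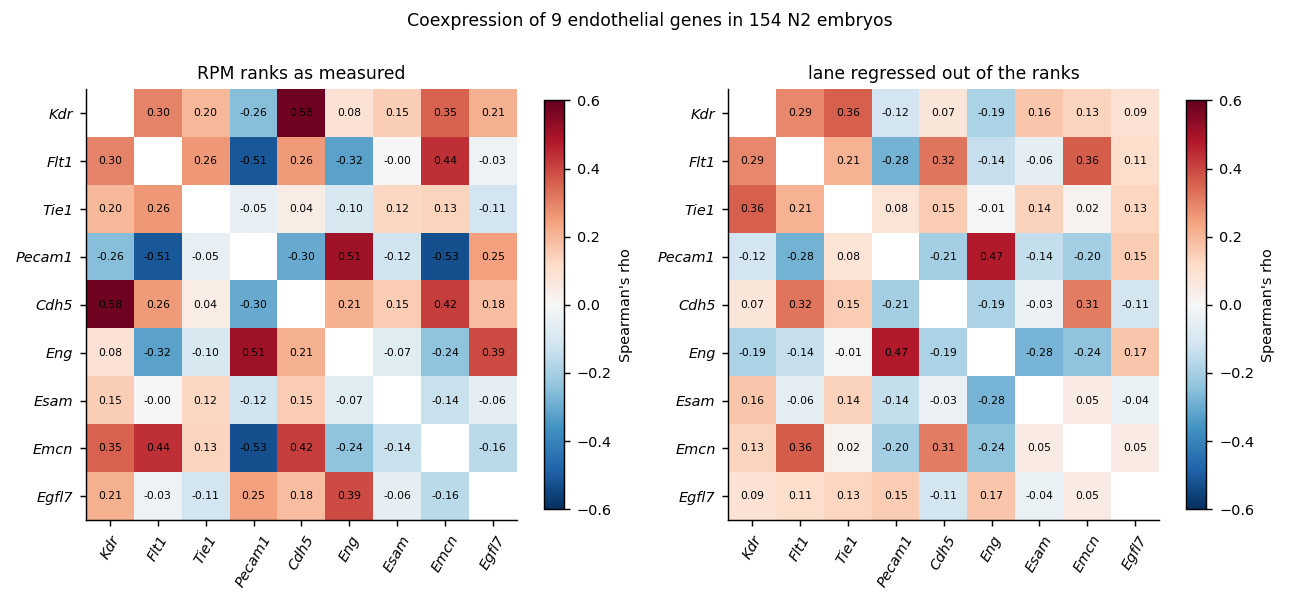
Spearman's rho between 9 endothelial genes over 154 N2 embryos, on ranks as measured (left) and with lane regressed out (right), coloured from -0.6 (blue) to 0.6 (red). Kdr with Cdh5 goes from 0.581 to 0.073 once lane is regressed out, whereas Pecam1 with Eng goes from 0.510 to 0.474 and Flt1 with Pecam1 from -0.509 to -0.282.

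Kdr and Cdh5 had a rho of 0.581 before lane was regressed out and of 0.073 after it. Over the medians of the 14 lanes Kdr had a rho of 0.912 with Cdh5 and of 0.829 with Tek, so these genes were high in the same lanes. Without lane regressed out, 20 of 36 member pairs and 62.5% of the other pairs passed, and with F1 mothers alone 5 and 11.9%. TMM-scaled values gave a median rho of -0.031 over member pairs and 0.007 over the other pairs, so the sign of the median depended on the scaling. Some members moved with the depth of the library, with a rho of 0.328 for Esam, -0.288 for Eng, -0.250 for Egfl7 and -0.241 for Emcn, while that of the other 6 lay between -0.092 and 0.152.

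Against the mean rank of the other 8 members, Tie1 had a rho of 0.360, Flt1 of 0.261 and Kdr of 0.259, and Eng (-0.117), Pecam1 (-0.072) and Esam (-0.061) were below 0. The genes most like the mean of the 9 members were Igf1r, the receptor of insulin-like growth factor 1 (rho 0.567), Wipf2 (0.563), Sel1l (0.549), Tchp, Agrn, Timeless, Jarid2, Gpc2, Ubr4, Tom1l2, Os9, Bop1, Nfkbia, Prdm2 and Phc1 (0.512). None of these 15 is in a list of endothelial genes. The lists of other endothelial genes (20 tested, median 0.245, highest Cd93, 0.397) and of ligands and co-receptors (13 tested, median 0.253, highest Nrp1, 0.476, and Nrp2, 0.417, co-receptors of VEGF) lay above the median of all genes, 0.152. The transcription factors had a median of 0.115, pericyte genes of 0.161, neuronal genes of 0.183, blood genes of 0.023, fetal liver genes of -0.013 and erythroid genes of -0.182. Erythroid genes ranged from -0.675 (Hbb-y) to 0.039 (Klf1). Their summed level reached 165629 RPM in B6xF1 and 186596 RPM in F1xB6, and had a rho of -0.402 with that of the members, with lane regressed out. RPM is scaled by all reads of a library, and the part of erythroid reads in these values was not tested.

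Single members had closer partners outside the group than within it. For Eng these were Hnrnpul2 (rho 0.764), Tgfb1 (0.723), a ligand of the family that Eng binds, and Zfp13 (0.714), against 0.474 with Pecam1. For Pecam1 they were Kdelr1 (0.743), Zfand2b (0.707) and Snord104 (0.704), for Emcn Cox7b (0.692), Rars2 (0.656) and Ndufb5 (0.649), and for Flt1 Tmem183a (0.662), Wipf2 (0.648) and Gcdh (0.634). Esam was most like Mrps21, Atp6v1e1 and Id1 (all at 0.63 to 2 decimals), and Cdh5 like Hsd17b4 (0.614), Prkaa1 (0.588) and Ppp2r5a (0.547). Tie1 was most like Tom1l2 (0.546), Troap and Nkain1, Kdr like Ubr2 (0.527), Fgfr1 and Uhrf1bp1l, and Egfl7 like Dgcr8 (0.507), Miip and Zfp692. None of these partners was in the lists of endothelial genes, and each member is 1 gene among 9999 compared, so the highest of many values is given.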

How the data were processed

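Whole E11.5 embryos were profiled by 3SEQ. Per the submitters' notes and the study's methods, reads were aligned to mm9 with Bowtie2 (version not given in the sources used here). The authors deposited raw read counts per gene, and votes per allele as estimated counts, since a read over several SNPs splits its vote among them. They also deposited genotypes per gene, as codes from votes smoothed along chromosomes by a hidden Markov model (0.5 for heterozygous, 1 for B6/B6, 0 for no call). Both runs of an F1 embryo were summed in 1 column by the authors. Of the N2 columns, 160 were matched to labels, 154 of these had genotypes, and 8 without a label were not used. Each column is a separate embryo, but embryos of a litter are not independent, and p-values over embryos measure the spread between embryos.

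RPM was computed from the counts, and genes averaging 5 RPM or more were tested. The N2 tests were those of the study's methods: Spearman correlation with somite number, Mann-Whitney U by mother, a paired test of votes and a rank-sum test by own genotype, on log2(RPM + 1), with 15 principal components in place of the study's PEER factors. F1 crosses were compared with edgeR 4.0.16 (quasi-likelihood test, TMM). Alternatives used edgeR, DESeq2 1.42.0 and limma 3.58.1 in R 4.3.3, and numpy 2.4.6, pandas 2.3.3 and scipy 1.17.1. Permutation tests drew 100000 samples, and the smallest p they can give is 1e-05. Allele tests asked for at least 20 votes. The scripts were tested on simulated data. Coordinates of genes are those of mm9, and promoter windows those of RefSeq on GRCm38.p6. The members and lists were chosen with earlier results of these data known. All members are named in each comparison, and of a list at most 4 called genes, those with the smallest p.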

Additional observations from a re-analysis of the deposited data

Results flagged for a closer look

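In groups of 4 to 10 F1 embryos, 37 sets of values were screened for an embryo that stood apart from the rest (Dixon's criterion), and 5 did. Chance gives about 1 such set in 20. In B6xCast, 1 embryo of litter 5 stood highest for Tek at 3.24 RPM, with the next at 2.15 RPM. Another B6xCast embryo, of litter 3, stood highest for Tie1 at 67.1 RPM, with the next at 57.5 RPM. Among the 4 B6xCast embryos with at least 20 votes for Tie1, the highest had a BAF of 0.741 from 27 votes, and the next 0.389. For Esam, the highest CastxB6 embryo had a BAF of 0.659 from 44 votes, and the next 0.540. For Egfl7, the lowest B6xCast embryo had a BAF of 0.451 from 460.34 votes, and the next 0.506. The embryo that stood low for Emcn in CastxB6 (2.70 RPM) did not meet the criterion.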

How the results depend on the processing

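Of the 9 members tested, 2 were called for somite number. TMM-scaled CPM, edgeR and the use of all matched embryos each called 1, while lane regressed out, litter means, flowcell 1 alone and edgeR with lane each called 0, B6 mothers alone called 5, and flowcell 2 alone and F1 mothers alone called 3 each. For the mother's genotype 0 were called, against 5 with Benjamini-Hochberg adjustment, 4 with edgeR, 4 with DESeq2, and 3 with that adjustment and without lane J (added after seeing the data). Between F1 crosses 2 were called, against 0 with somite number as covariate (13 embryos), 0 with litter as a block in limma voom, and 1 with a single litter of similar stage per cross (added after seeing the data), where Esam turned from -0.09 to 0.47. For allele-specific expression 0 were called, and 1 with Benjamini-Hochberg adjustment. For own genotype 0 were called, and 1 with F1 mothers alone. Among member pairs 12 were called, against 20 without lane regressed out and 5 with F1 mothers alone, where fewer embryos were tested, and the median rho of 0.061 turned to -0.031 with TMM scaling. The cause of these changes was not tested. The counts for parent of origin and for BAF against somite number stayed at 0 under each alternative run. No replicate was left out in turn, since no group had 5 or fewer samples. No paired analysis was possible because the embryos carry no replicate numbers that are shared between groups in the labels. Depth limits Tek in N2 embryos (a median of 4 reads) and the allele fractions of Tie1, Eng and Flt1 (8, 53 and 52.96 votes).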
